A study of Homo sapiens with 66 samples.

Results

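The SRC family kinases are non-receptor tyrosine kinases of the inner cell membrane. The genes described here are FGR, LYN, FYN, SRC, YES1, LCK and BLK, which are 7 members of the family, and CSK, the kinase that holds the family in check. These 8 genes were found by symbol among 57992 gene identifiers, and the group was chosen on the reads of FGR, because FGR rose with etoposide in the cell lines that responded. The values of FGR under etoposide are therefore a description of how the genes were chosen and carry no test, and the calls of the other genes in the same comparison are given in the same way. RNA-seq was performed on 11 acute myeloid leukemia (AML) cell lines, F36P, HL60, KASUMI1, MOLM13, MONOMAC6, MV411, NB4, NOMO1, OCIAML2, OCIAML3 and THP1. Cells were untreated or received etoposide, a topoisomerase II poison that leaves DNA breaks unsealed, for 24 hours at the IC50 of each cell line. Each of the 22 groups had 3 libraries, described by the submitters as biological replicates, and the cells of 3 wells were pooled for each RNA sample. Because the dose differed between cell lines, a difference in response between cell lines cannot be told apart from a difference in dose.

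An SRC family kinase carries an SH3 domain, an SH2 domain and a catalytic domain behind a lipid-anchored N-terminus. CSK phosphorylates a tyrosine in the C-terminal tail, which folds the enzyme into a closed, less active form, and the phosphatase CD45 (PTPRC) removes that phosphate. In blood cells the family acts right below receptors that lack their own kinase, by phosphorylating the ITAM motifs of adaptors such as TYROBP and FCER1G, which then bind SYK. FGR and LYN are best known from monocytes, macrophages and granulocytes. LCK is the T cell member, BLK the B cell member, and SRC, FYN and YES1 are found in many tissues. AML cell lines are immature myeloid cells held at different stages, so the family can differ between them before any treatment.

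The RefSeq promoter windows (GRCh38.p14, 250 bases before and 50 after a start site) are shown for FGR, which rose most broadly, and for LCK, which had no reads in untreated F36P cells and gained them under etoposide. Windows were found for 5 of the 8 genes (FGR, FYN, YES1, LCK and CSK), 10 windows in all. Capitals mark matches on either strand to GAGGAAG, a form of the core bound by the myeloid factor PU.1 (SPI1), to GGAAGT, a core shared by ETS factors, or to TGANTCA, the AP-1 motif, where N is any base. These motifs were chosen after the windows had been read. A GAGGAAG followed by T also matches GGAAGT, which happened in none of the windows shown. The first FGR window is chr1:27635136-27635435 and the second chr1:27626548-27626847, both on the minus strand. The LCK windows are chr1:32251015-32251314 and chr1:32273871-32274170, both on the plus strand.
FGR window 1: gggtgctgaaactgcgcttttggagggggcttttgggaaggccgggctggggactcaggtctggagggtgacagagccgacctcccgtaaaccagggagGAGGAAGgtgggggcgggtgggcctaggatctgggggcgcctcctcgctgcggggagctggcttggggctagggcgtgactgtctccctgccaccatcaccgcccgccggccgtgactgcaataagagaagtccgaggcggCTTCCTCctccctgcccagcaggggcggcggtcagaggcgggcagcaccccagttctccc
FGR window 2: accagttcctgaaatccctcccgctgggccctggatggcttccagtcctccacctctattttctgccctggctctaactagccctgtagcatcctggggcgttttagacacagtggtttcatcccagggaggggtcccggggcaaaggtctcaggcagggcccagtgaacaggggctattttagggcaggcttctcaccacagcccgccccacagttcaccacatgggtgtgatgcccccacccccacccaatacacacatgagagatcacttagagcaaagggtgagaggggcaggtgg
LCK window 1: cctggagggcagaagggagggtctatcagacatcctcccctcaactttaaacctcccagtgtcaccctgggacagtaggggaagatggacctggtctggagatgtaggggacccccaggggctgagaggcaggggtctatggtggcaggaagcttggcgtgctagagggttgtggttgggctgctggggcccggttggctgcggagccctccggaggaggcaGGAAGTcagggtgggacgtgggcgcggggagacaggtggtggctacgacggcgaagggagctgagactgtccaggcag
LCK window 2: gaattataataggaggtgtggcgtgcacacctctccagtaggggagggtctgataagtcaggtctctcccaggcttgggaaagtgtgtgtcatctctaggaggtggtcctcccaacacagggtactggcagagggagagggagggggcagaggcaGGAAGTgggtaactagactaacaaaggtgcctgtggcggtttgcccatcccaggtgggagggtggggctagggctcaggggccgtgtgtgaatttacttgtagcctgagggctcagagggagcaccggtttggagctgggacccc
The first FGR window held 2 matches to GAGGAAG, starting 151 and 10 bases before the start site, on the plus and the minus strand of the gene. GAGGAAG occurred in 13.6% of all 35116 windows in the table. Each LCK window held 1 match to GGAAGT, 28 bases before the start site in the first window and 95 in the second, and 22.8% of all windows held that motif. No window of the 5 genes held TGANTCA, which 7.71% of all windows did, and the windows of FYN, YES1 and CSK held none of the 3 motifs. These are matches of letters, and binding was not measured.

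Reads on genes numbered 17997404 to 24101670 per library (median 20241014). Levels are given as CPM, read counts scaled to the normalized size of each library, and 0 reads over 3 libraries allow a level of 0.041 to 0.057 CPM, for counting error only. A gene was called in a cell line when edgeR's quasi-likelihood test gave an FDR below 0.05 and the fold change was above 2. CDKN1A, the p21 cell cycle inhibitor induced by DNA damage, was called higher in 10 of 10 cell lines without OCIAML2, while MDM2, which p53 induces, was called higher in 3 of 10 (MOLM13, MV411 and OCIAML3). The etoposide libraries of OCIAML2 were set aside by the study after quality control of the raw reads, and here 0% of the 13604 genes tested in that line were called in either direction by edgeR or by DESeq2, with 456 genes at an unadjusted p under 0.05. In those libraries CDKN1A (45.8 ± 1.94 CPM untreated, 76.1 ± 3.54 CPM with the etoposide label) and MDM2 (99.6 ± 3.2 and 138 ± 6.73 CPM) were higher with ranges apart, and neither was called. OCIAML2 is therefore given apart in each etoposide comparison, and its untreated libraries were kept. The 6 myeloid identity markers all passed the filter on low counts in each of the 10 cell lines, which by itself does not show identity. In untreated cells SPI1 was at 115 to 186 CPM over these lines, while MPO ran from 1.02 CPM in F36P to 27115 CPM in KASUMI1. In F36P, erythroid transcripts were abundant as well, with the 7 erythroid and megakaryocytic markers summing to 7271 CPM in untreated cells against 11 to 52.1 CPM in the other 9 of the 10 lines.

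On GRCh38, FGR lies on chromosome 1 at 27612064 to 27635185 on the minus strand and LCK on chromosome 1 at 32251244 to 32286165 on the plus strand. LYN (55879835 to 56014169) and BLK (11486894 to 11564599) are on the plus strand of chromosome 8. FYN is on chromosome 6 at 111660332 to 111873452 on the minus strand, SRC on chromosome 20 at 37344685 to 37406050 on the plus strand, YES1 on chromosome 18 at 721588 to 812546 on the minus strand, and CSK on chromosome 15 at 74782080 to 74803197 on the plus strand. All 8 are protein-coding.

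In untreated cells the 11 lines differed widely in which SRC family kinases they expressed. Each of the 8 genes differed between the 11 lines in an edgeR quasi-likelihood F-test over the 33 untreated libraries. The adjusted p ranged from 4.21e-31 (FGR) to 6.42e-09 (BLK). Since 99.4% of the 18130 genes tested passed the same test, this share is no mark of the family. LCK and BLK passed the filter on low counts only through NOMO1 and MV411, respectively. A difference between lines was thus fixed in advance for LCK and BLK, and nothing is read from their p. What follows are the levels, in CPM normalized over the 33 untreated libraries.

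FGR was highest in OCIAML2, which stood far above the rest at 156 to 160 CPM. MONOMAC6 (22.7 ± 1.67 CPM, SD, n = 3), MOLM13 (20 ± 5.62) and THP1 (13.2 ± 1.67) followed, with ranges that overlapped from each line to the next. OCIAML3 (7.72 ± 1.31), NOMO1 (5.75 ± 0.364) and MV411 (5.47 ± 1.06) came next. The range of MV411 overlapped with those of both NOMO1 and OCIAML3, while OCIAML3 and NOMO1 were apart. NB4 had 0.713 ± 0.269 CPM. In KASUMI1, HL60 and F36P, FGR was close to absent, with 14, 7 and 2 reads over the 3 libraries of each line. HL60 overlapped with both KASUMI1 and F36P and cannot be ranked against them. KASUMI1 (0.203 to 0.332 CPM) lay below NB4 and above F36P (0 to 0.0542 CPM), at few reads.

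LYN, the family member that both starts and restrains signalling in myeloid cells, was present in all lines. Its mean level ran from 45.5 ± 0.142 CPM in HL60 to 327 ± 20.2 CPM in MOLM13. Of the 10 neighbouring pairs in the order, only OCIAML3 (231 ± 6.55) and MONOMAC6 (223 ± 4.82) overlapped. F36P, the line with erythroid transcripts, was second with 291 ± 15.1 CPM. FYN, best known from T cell and neuronal signalling, was highest in OCIAML2 (112 ± 4.31) and F36P (99.4 ± 7.47), whose ranges overlapped, and lowest in MV411 (2.38 ± 0.346). SRC, the founding member, was highest in OCIAML3 (54.3 ± 4.35), followed by MONOMAC6 (20.8 ± 1.25) and OCIAML2 (18.3 ± 1.6), and it had only 4 reads over the 3 untreated libraries of KASUMI1. Only NOMO1 and NB4 overlapped in the order of SRC.

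YES1, a close relative of SRC, was highest in F36P (110 ± 37.2 CPM, with libraries from 76.8 CPM upwards) and MONOMAC6 (68.5 ± 3.91). It lay between these and the rest in 7 lines, NB4, THP1, OCIAML3, MV411, HL60, KASUMI1 and MOLM13, with means of 28.8 to 39.4 CPM, and lower in NOMO1 (10.2 ± 1.97). In OCIAML2, YES1 was all but silent, with 1 read over the 3 untreated libraries and 0 reads over the 3 etoposide libraries, while the other lines had 663 to 6237 untreated reads. Reads of YES1 could be shared with its pseudogene YES1P1 (163 reads in all 66 libraries) and, if strand was not used in counting, with 2 opposite-strand lncRNAs that share 154 and 159 exon bases with it and hold 2 and 240 reads.

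LCK and BLK were restricted. LCK was expressed in NOMO1 (7.14 ± 1.31 CPM) and had 3 reads in NB4, 2 in HL60 and 0 in the untreated libraries of the other 8 lines. BLK was found in MV411 (1.59 ± 0.309 CPM) and had 4 reads in NOMO1, 3 in MOLM13 and 0 in the other 8 lines. NOMO1 also held the T cell transcript CD3D at 174 ± 14.9 CPM before treatment, and the summed level of the 7 lymphoid markers there was 189 CPM against 0.469 to 24.5 CPM in the other 9 of the 10 lines. Most of that sum was CD3D. The T cell transcripts CD3E, CD2 and CD7 were at 3.69, 0.327 and 0.22 CPM in NOMO1. CD79A, CD79B and MS4A1 were at 4.01, 3.54 and 2.99 CPM. In MV411 the B cell receptor chains CD79A and CD79B had 22 and 48 reads before treatment, while CD2, CD3E and MS4A1 were at 0. These counts were not high among the lines, since CD79A had 374 reads in F36P and 234 in NOMO1, and CD79B 1019 in KASUMI1 and 858 in NB4. Lower counts were found for CD79A in OCIAML3 (5) and THP1 (17), and for CD79B in HL60 (4), MOLM13 (18) and OCIAML3 (24). CSK was the most even member, from 125 ± 7.63 CPM in HL60 to 264 ± 7.09 CPM in OCIAML2, and 8 of the 10 neighbouring pairs overlapped.

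**Figure D1:**
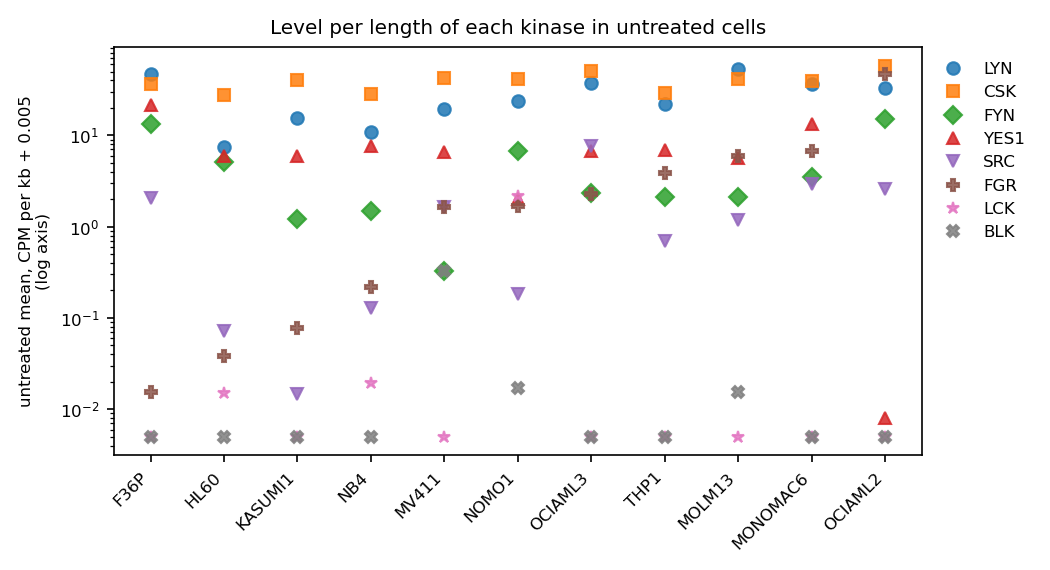
Mean level of each kinase in the 3 untreated libraries of each cell line, in CPM per kb of exon with 0.005 added, on a log axis, with the cell lines ordered by their FGR level. CSK and LYN form the upper edge in most lines, FGR climbs from left to right up to 46.9 CPM per kb in OCIAML2, and YES1 drops to the floor in OCIAML2.

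Per kb of exon, LYN was the leading one of the 7 genes other than CSK in 10 of 11 untreated lines. It ranged there from 7.38 CPM per kb in HL60 to 53.1 CPM per kb in MOLM13. OCIAML2 was the exception, where FGR led with 46.9 CPM per kb against 33.1 CPM per kb for LYN. YES1 took second place in 7 of the 10 lines other than OCIAML2, and FGR (MOLM13), FYN (NOMO1) and SRC (OCIAML3) took it in 1 line each. In HL60, MOLM13 and OCIAML3 this second gene lay above the one after it in 2 of 3 libraries, as with FGR (8.73% ± 2.48 of the summed reads per kb of the 7 genes) and YES1 (8.32% ± 1.22) in MOLM13. CSK, at 27.5 to 58.1 CPM per kb, was above LYN in 9 of 11 lines, and below it in F36P (36.2 against 47.2) and MOLM13 (41.2 against 53.1). Before treatment LYN and CSK were thus the main transcripts of the group, and FGR was a minor one outside OCIAML2.

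FGR was higher after etoposide in 10 of 10 cell lines. The values below are CPM normalized within each cell line, and the share of tested genes that were called higher in the same line is given beside each. In bulk RNA, fewer cells of a type and less RNA per cell cannot be told apart, so a level is an average over the cells that were left after 24 hours.

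KASUMI1 had the largest fitted log2 fold change of FGR, although from few reads. Its untreated libraries had 0.203, 0.21 and 0.329 CPM, and its etoposide libraries 11.3, 14 and 11.9 CPM, from 14 reads to 811. The log2 fold change was 5.62 ± 0.22 (SE), and 14.6% of genes were called higher in KASUMI1. In MV411, untreated libraries had 6.19, 6.78 and 4.59 CPM and etoposide libraries 56.3, 62.8 and 61.3 CPM. The log2 fold change was 3.36 ± 0.1, where 12.5% of genes were called higher. In both lines the groups were far apart, and the etoposide libraries lay close together.

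In MONOMAC6, the line with the most FGR among these 10, untreated libraries had 21.6, 24.4 and 24.9 CPM and etoposide libraries 109, 115 and 116 CPM (log2 fold change 2.26 ± 0.065, with 8.53% of genes called higher). OCIAML3 went from 6.34, 7.91 and 9.09 CPM to 45.8, 41.3 and 60.1 CPM (2.65 ± 0.18, 7.18% of genes). NOMO1 went from 5.96, 6.55 and 6.75 CPM to 29.1, 27.6 and 26.8 CPM (2.12 ± 0.11, 8.34% of genes). In each of these lines the lowest etoposide library lay above the highest untreated library.

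The smaller changes were in MOLM13 and THP1. MOLM13 had 13.1, 23 and 21.7 CPM before and 50.3, 72.6 and 71.5 CPM after etoposide (log2 fold change 1.75 ± 0.2, 8.59% of genes called higher). THP1 had 12.3, 12.9 and 15.4 CPM before and 34.2, 37.3 and 34.5 CPM after (1.39 ± 0.14, 6.38% of genes). Replicate 1 of MOLM13 was the lowest of its group in both conditions.

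Of the lines with little FGR, NB4 had 0.457, 0.764 and 1.03 CPM before and 4.96, 5.32 and 6.01 CPM after etoposide (log2 fold change 2.86 ± 0.24, 13.2% of genes called higher). HL60 had 6, 1 and 0 reads before and 15, 34 and 24 reads after (3.24 ± 0.62, 5.34% of genes). Without untreated replicate 1, which held 6 of the 7 untreated reads, the HL60 value was 5.22. F36P had 0, 1 and 1 reads before and 12, 14 and 28 reads after, a ratio of 23.1 in normalized CPM with a 95% counting interval of 6.1 to 196 (27.4 by library size alone), and 24.3% of genes were called higher in F36P. FGR stayed below 2 CPM in all libraries of HL60 and F36P, so these 2 lines gained few FGR transcripts whatever the fold. In OCIAML2, where FGR was highest before treatment, the untreated libraries had 156, 161 and 160 CPM and the libraries labelled etoposide 147, 165 and 166 CPM (log2 fold change 0.01 ± 0.055), and the groups overlapped.

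**Figure D2:**
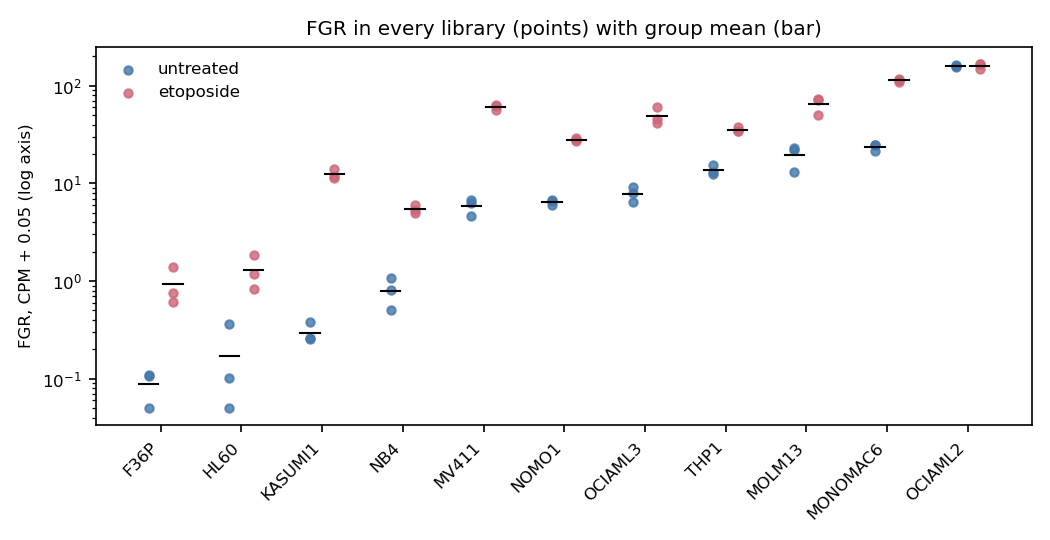
FGR in each of the 66 libraries, as CPM normalized within the cell line with 0.05 added, on a log axis, with untreated libraries in blue, etoposide libraries in red and a bar at each group mean. The etoposide points lie above the untreated points in 10 of 11 lines, and in OCIAML2 both groups sit at about 159 CPM.

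FGR was 1 of 17 genes called higher in each of the 10 cell lines, which is 0.161% of the 10588 genes tested in all of them. The other 16, named after their values were seen, were PRDM1, FGFR3, BCL3, PTPRH, NRP1, PCDH12, CD86, CDKN1A, C3, SAT1, MFSD6, BTG2, MPZL3, FILIP1L, CXCL8 and REPS2. Among them are CD86, a costimulatory surface protein of monocytes and macrophages, and BTG2, an antiproliferative gene downstream of p53. The median log2 fold change of FGR over the 10 lines was 2.76, against 3.04 for CDKN1A. Since FGR chose the group, nothing is read from its place in this list.

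SRC was the member next most often called, higher in 7 of the 9 lines in which it was tested. In KASUMI1 it went from 3, 0 and 1 reads to 110, 108 and 111 reads (log2 fold change 6.04 ± 0.37, and 7.25 without untreated replicate 1), the largest fitted value of any member with reads in both groups. SRC passed the filter on low counts in KASUMI1 through the etoposide libraries alone, so that higher call was nearly fixed in advance. In MV411 it went from 12.7, 12.6 and 12.1 CPM to 70.2, 77.8 and 76.8 CPM (2.59 ± 0.077). The groups were far apart in both lines. MOLM13 (8.01 to 24.9 CPM, 1.64 ± 0.14), F36P (15.6 to 39.1 CPM, 1.33 ± 0.15), NB4 (0.922 to 2.23 CPM, 1.27 ± 0.25) and MONOMAC6 (21.6 to 51.6 CPM, 1.26 ± 0.07) were called higher as well. In NOMO1 the call rested on replicate 2, since the etoposide libraries had 2.59, 4.98 and 1.82 CPM. Its log2 fold change was 1.13 ± 0.34, and without etoposide replicate 2 it was 0.61 and no longer called, as it also was not without untreated replicate 2 (0.98). SRC was not called in THP1 (5.07 to 7.67 CPM, 0.59 ± 0.2) or in OCIAML3 (54.6 to 63.3 CPM, 0.21 ± 0.086), the line with the most SRC before treatment. HL60 had 29 reads in each condition and was below the filter on low counts. In the 9 tested lines the etoposide range of SRC lay above the untreated range.

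FYN was called higher in 2 of 10 lines. In THP1 it went from 17.4, 14.4 and 16.2 CPM to 77.5, 80.1 and 74 CPM (log2 fold change 2.27 ± 0.13). In NB4 it went from 8.99, 13.3 and 12.1 CPM to 45.5, 42.4 and 45.5 CPM (1.95 ± 0.13). F36P stood at the other end, with 105 ± 3.59 CPM before and 55.4 ± 1.76 CPM after etoposide (-0.92 ± 0.11, not called), and the ranges were apart. In the remaining 7 lines the log2 fold change lay between 0.02 (MOLM13) and 0.68 (NOMO1). In HL60, untreated replicate 2 had 58.3 CPM against 30.1 and 33.7 CPM in the other libraries, and without it the value of 0.66 became 1.01 and was called. FYN in F36P was called lower without untreated replicate 3, at -1.06.

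LYN, which led per kb in 10 of 11 untreated lines, was called in 1 line. In F36P it went from 306, 293 and 325 CPM to 105, 97.5 and 112 CPM (log2 fold change -1.55 ± 0.11), and it was the only member–line pair called lower, in a line in which 6.67% of genes were called lower (1061 of 15911, and 600 with library size alone). In the other 9 lines LYN had log2 fold changes from -0.40 (KASUMI1) to 0.43 (MOLM13), none of them called. Its etoposide range also lay below the untreated range in KASUMI1 and MV411, and above it in 5 lines. The summed erythroid and megakaryocytic markers of F36P moved from 7271 to 4623 CPM, and all 5 epithelial and fibroblast markers were called higher in this line, from 5.59 to 112 CPM in sum. The part of either in the values of LYN and FYN was not tested.

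YES1 and CSK were not called in any line. YES1 ranged from -0.72 ± 0.12 in MOLM13 (27.6 to 16.8 CPM) and -0.61 ± 0.11 in NB4 (41.4 to 27.2 CPM) to 0.12 ± 0.14 in THP1, with a median of -0.24. In MOLM13, NB4 and MONOMAC6 its etoposide range lay below the untreated range. CSK ranged from -0.69 ± 0.093 in NB4 (136 to 84 CPM) to 0.00 ± 0.08 in MOLM13 (180 to 180 CPM), with a median of -0.26. The etoposide range of CSK lay below the untreated range in 6 of 10 lines, F36P, KASUMI1, MONOMAC6, MV411, NB4 and NOMO1. None of these values reached the fold of 2, by edgeR's quasi-likelihood or exact test or by DESeq2. Without the minimum fold, CSK passed the FDR in 6 lines and YES1 in 3, and at an unadjusted p under 0.05 there were 6 and 4. Passing the FDR at any fold was common among all genes. The share was lowest in THP1 (4746 of 14789 genes tested) and highest in MV411 (8939 of 13998), so little is read from these counts.

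LCK and BLK were each called higher in 1 line. LCK in F36P had 0, 0 and 0 reads before and 54, 65 and 75 reads after etoposide, at least 55.4-fold higher in normalized CPM with 3 reads over the group as the floor (65.7-fold by library size alone), and it was called higher. LCK passed the filter on low counts there through the etoposide libraries alone, so that higher call was nearly fixed in advance. In NOMO1, the line with basal LCK, it went from 7.98 ± 1.44 to 10.8 ± 0.999 CPM (log2 fold change 0.43 ± 0.15, not called). Fewer reads appeared in NB4 (3 to 28 reads, a ratio of 7.79 with a counting interval of 2.41 to 40.1), HL60 (2 to 14 reads, 6.62, interval 1.52 to 60) and KASUMI1 (0 to 10 reads, at least 2.89-fold higher), all below the filter on low counts. BLK was called higher in MV411, from 2.05, 1.65 and 1.41 CPM to 4.07, 4.27 and 3.76 CPM (1.24 ± 0.19). In F36P, BLK had 0 reads before and 8, 8 and 13 reads after, at least 8.28-fold higher and below the filter. An opposite-strand lncRNA shares 65 exon bases with BLK and held 12 reads in all libraries.

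The lymphoid markers beside these values were as follows. In F36P, 2 of the 6 lymphoid markers tested were called higher, a share near the 24.3% of all genes in that line, their sum over the 7 listed went from 24.1 to 39.4 CPM, and CD3D went from 71 to 426 reads. In MV411, 2 of 2 tested were called higher, and the sum went from 1.32 to 7.73 CPM. Over all 10 lines the lymphoid list had 14 of 29 pairs of gene and line called higher (48.3%) and 1 called lower, against 11.1% and 3.96% of all pairs. Some of these pairs passed the filter on low counts through the etoposide libraries alone, so a higher call was nearly fixed in advance for them. Examples are CD2 in KASUMI1 (1 to 60 reads) and F36P (7 to 78) and CD3E in HL60 (3 to 42). Whether LCK, BLK and these transcripts came from the same cells was not tested.

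**Figure D3:**
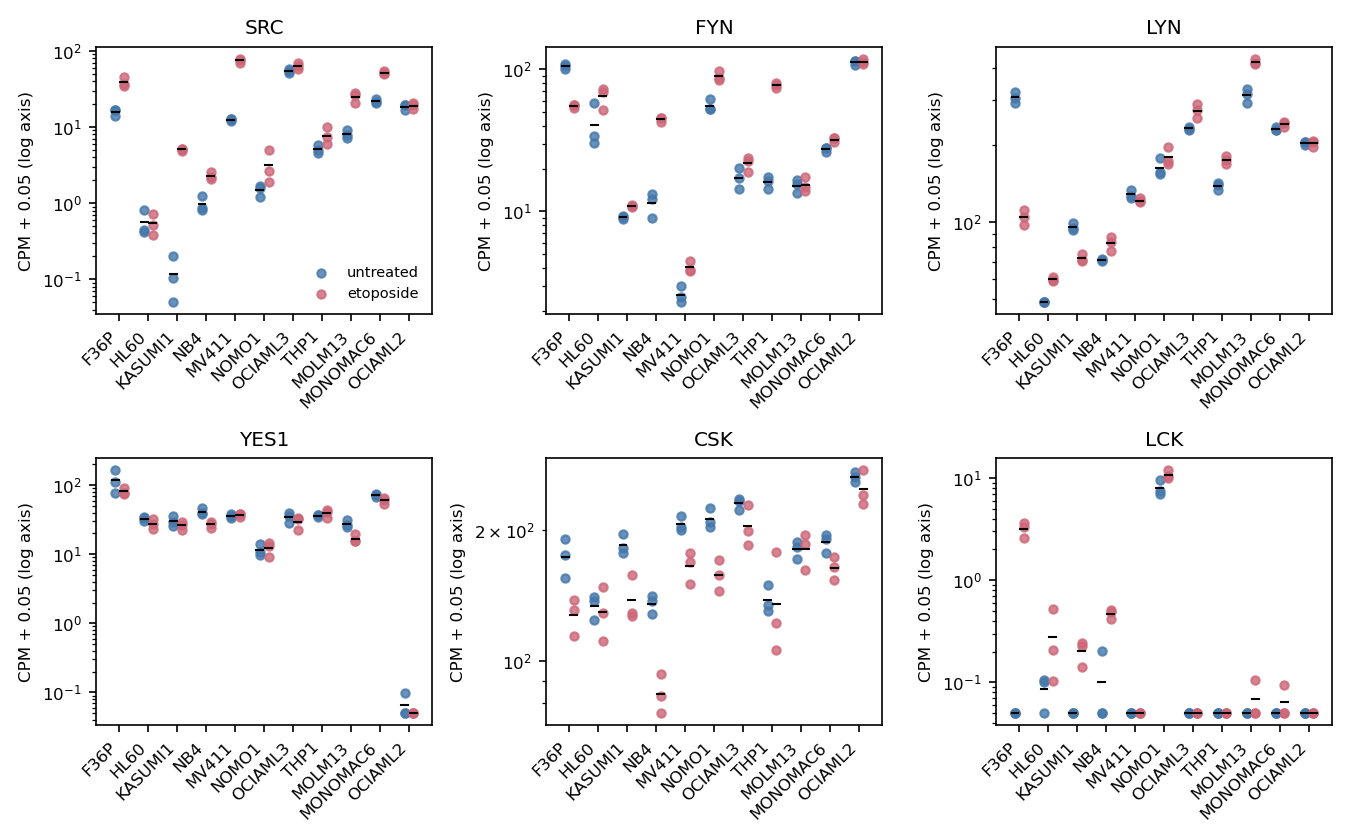
SRC, FYN, LYN, YES1, CSK and LCK in each library, as CPM normalized within the cell line with 0.05 added, on log axes with a separate scale per panel, with the cell lines in the order of basal FGR. SRC shows higher etoposide points in 9 lines, FYN its largest shifts in NB4 and THP1, LYN its largest drop in F36P, and YES1 and CSK shifts smaller than 2-fold.

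Over the 8 genes and 10 lines there were 80 pairs, of which 62 passed the filter on low counts. The 18 that did not had at most 58 reads over 6 libraries, and 11 of them had at most 1 read. Of the 62 tested, 21 were called higher and 1 lower, against 11.1% higher and 3.96% lower among all 143149 pairs of gene and line tested. FGR alone gave 10 of the 21. The other 7 genes gave 11 higher calls in 52 tested pairs, 7 of them SRC. Of these 11, SRC in KASUMI1 and LCK in F36P passed the filter on low counts through the etoposide libraries alone. Etoposide ranges lay wholly above untreated ranges in 31.2% of all tested pairs and wholly below in 28.6%, so the separation of ranges by itself, as seen for SRC in 9 lines and for CSK in 6, is common in these data.

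**Figure D4:**
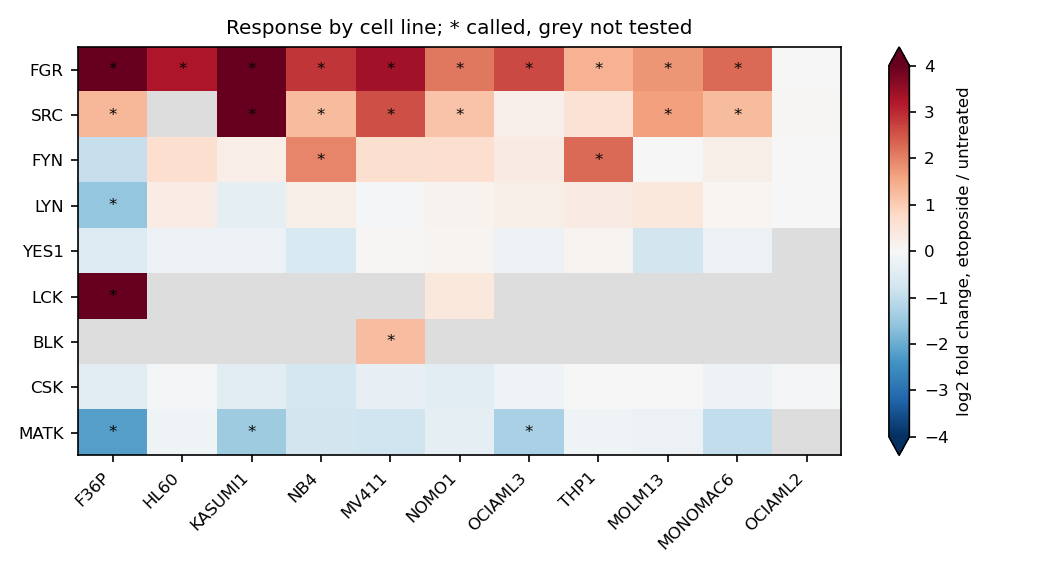
Log2 fold change of etoposide over untreated for the 8 genes and the related kinase MATK in each cell line, with the colour scale ending at 4, a star for a called change and grey for genes below the filter on low counts. LCK in F36P, which had 0 untreated reads, is drawn at the end of the scale. FGR carries a star in 10 lines and SRC in 7, while the rows of YES1 and CSK carry none.

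The size of the response differed between the 10 lines for 6 of the 7 genes other than FGR, in an edgeR quasi-likelihood F-test of the 9 interaction terms over 60 libraries. The adjusted p was 2.21e-23 for LYN, 1.11e-18 for FYN, 7.47e-16 for SRC, 1.75e-07 for LCK, 0.00141 for CSK and 0.0132 for YES1, and 0.206 for BLK, which was not shown to differ. This test was passed by 74.5% of the 19974 genes tested. In the fits per line, LCK passed the filter on low counts in 2 lines and BLK in 1, so the other lines held few of their reads. LCK in F36P passed it through the etoposide libraries alone, so little is read from its p. For YES1 the result did not hold with a replicate block (adjusted p 0.0524), without replicate 2 (0.0997) or without replicate 3 (0.0849). For LYN the result did not rest on F36P alone, since without that line the adjusted p was 8.6e-10. FGR was left out of this test because its response chose the group, and its log2 fold changes spanned 1.39 to 5.62.

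The share of FGR among the 7 kinases other than CSK was higher after etoposide. It largely restates the rise of FGR that chose the group, so it is a description and carries no test. The sum used here covers these 7 genes and not the whole family. As a share of their summed reads per kb, which does not depend on how libraries are scaled, FGR went from 5.38% ± 0.901 to 31.4% ± 1.25 in MV411 (SD, n = 3). It went from 10.7% ± 0.883 to 34.8% ± 1.26 in MONOMAC6 and from 0.322% ± 0.0971 to 16.1% ± 1.65 in KASUMI1. In OCIAML3 the share went from 4.04% to 18.9%, in MOLM13 from 8.73% to 19.7%, in THP1 from 11% to 18%, in NOMO1 from 4.68% to 14.8% and in NB4 from 1.02% to 5.99%. HL60 (0.187% to 1.55%) and F36P (0.0121% to 0.547%) kept FGR as a small fraction. The ranges of the share were apart in 10 of 10 lines, as those of FGR itself were. In OCIAML2 the share was 48% in both groups.

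Among the 7, LYN remained the leading gene per kb in the 10 lines after etoposide, but its share was lower than in untreated cells in 9 of them, for instance 34.9% against 65.2% in MV411 and 41% against 57.6% in MONOMAC6. FGR was second by its mean after etoposide in 5 of 10 lines (MOLM13, MONOMAC6, MV411, OCIAML3 and THP1), and before it in MOLM13. In THP1 that place was a near tie of FGR (18% ± 0.945) with FYN (17.9% ± 0.584), with FGR above in 2 of 3 libraries. YES1, second in 7 lines before, was second in F36P and KASUMI1 after. SRC reached 18.5% of the sum in MV411, from 5.45%, and FYN in THP1 came from 5.95%. The ratio of CSK to the sum of the 7, per kb, was lower after etoposide in 9 of 10 lines, for instance 0.642 ± 0.0439 against 1.42 ± 0.0983 in MV411, and higher in F36P (0.597 ± 0.0696 against 0.434 ± 0.0884). The sum holds FGR, whose rise chose the group, so both ratios were also taken with FGR left out of it. The LYN share was then lower in 7 of 10 lines, not in HL60, MOLM13 or OCIAML3, and the CSK ratio in 9 of 10, with 0.936 ± 0.0774 against 1.5 ± 0.0899 in MV411. This alternative was added after the data were seen.

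**Figure D5:**
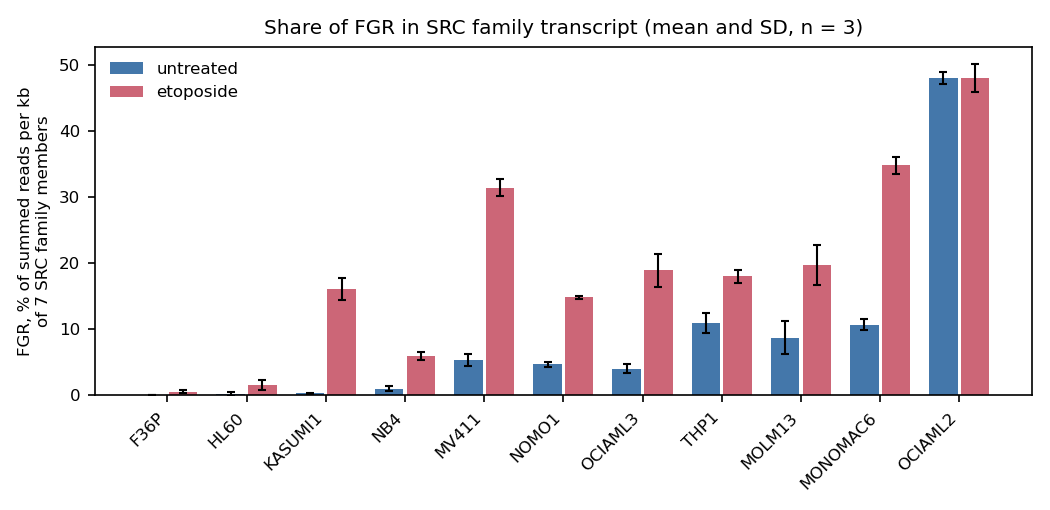
FGR as a percentage of the summed reads per kb of FGR, LYN, FYN, SRC, YES1, LCK and BLK, as the mean of 3 libraries with SD, before (blue) and after etoposide (red). The share is higher after etoposide in 10 lines, up to 34.8% in MONOMAC6, and 48% in both groups of OCIAML2.

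MATK, the CSK-related kinase that also acts on the family's tail, had negative log2 fold changes in 10 of 10 lines. It was called lower in F36P (15.8 to 3.43 CPM, -2.20 ± 0.21), KASUMI1 (126 to 47.3 CPM, -1.41 ± 0.15) and OCIAML3 (10.8 to 4.39 CPM, -1.30 ± 0.13). In OCIAML2, MATK had 5 reads before and 0 after treatment. In F36P, 6.67% of all genes were called lower. MATK, FRK, PTK6 and SRMS, listed as related kinases, had 4 of 18 tested pairs called higher (22.2%) and 3 lower (16.7%). Among all pairs of gene and line, 11.1% were called higher and 3.96% lower. The 3 lower calls of this list were those of MATK.

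Of 80 genes listed around the family, 14 were called in the same direction in at least 5 lines, that direction was higher for each of them, and the 12 that came first by the naming rule are described here. Of these 80 genes, 72 were tested in at least 5 lines, and of all 14286 genes tested in at least 5 lines 5.54% were called higher in at least 5. Upstream of the kinases stand 25 listed receptors and adaptors, with 97 of 202 tested pairs called higher (48%) and 6 called lower, and a median log2 fold change of 0.90 against 0.01 over all pairs. ITGAM, the CD11b chain of the integrin Mac-1, was called higher in 9 lines, with a median of 1.83 and up to 5.24 in KASUMI1. ITGAX, the CD11c chain, was called higher in 8 lines (median 1.81), as was TREM1 (median 2.83), an activating receptor that signals through TYROBP. The ITAM adaptors themselves followed, with TYROBP called higher in 7 of 10 lines (median 1.31) and FCER1G in 6 of 10 (1.09), and neither called lower. CLEC7A, the beta-glucan receptor Dectin-1, was called higher in all 7 lines in which it was tested, by at least 2.27 on the log2 scale. In HL60, KASUMI1, MOLM13, MONOMAC6 and NB4 it had at most 8 reads over the untreated libraries. It passed the filter on low counts there through the etoposide libraries alone, so a higher call was nearly fixed in advance. TREM1 in HL60 (0 to 66 reads) passed the filter in the same way. CLEC7A went from 68 to 339 reads in NOMO1 and from 33 to 208 in OCIAML3.

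The inhibitory receptors CD22 (5 of 5 tested lines, median 3.38) and LILRB2 (5 of 7, 1.47), which carry tyrosine motifs that the family phosphorylates, were called higher as well. FCGR2B, the inhibitory Fc receptor, was called higher in 5 of 10 lines and lower in 1, with values from -1.87 in OCIAML3 to 7.28 in KASUMI1, and its reads are uncertain because its sequence is close to those of FCGR2A and FCGR2C. TREM2, another receptor that pairs with TYROBP, was called higher in 5 of 6 lines (median 2.56), and CSF1R, the receptor for M-CSF, in 5 of 9 (1.21). In contrast, ITGB2, the chain that pairs with ITGAM and ITGAX, was called in 0 of 10 lines (median 0.33), and so was SIRPA (0.34), by edgeR or DESeq2. Each of them had an unadjusted p under 0.05 in 7 lines, at folds below 2. ITGB2 and SIRPA are named here after their values were seen.

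Among 13 phosphatases and adaptors that set the activity of the family, 14 of 120 tested pairs were called higher (11.7%) and 2 lower. The share called higher was close to that among all pairs. Most of these higher calls came from PAG1, higher in 5 of 10 lines (median 0.76, up to 4.64 in F36P, from 13 to 388 reads), and PTPN22, in 4 of 10 (0.81). Both are named after their values were seen. Among 38 substrates and effectors, 35 of 353 were called higher (9.92%) and 13 lower (3.68%), also close to it, and the median was 0.06. BCAR1, the docking protein p130Cas, was called higher in 5 of 8 lines (median 1.11), as was the focal adhesion protein PXN (paxillin) in 5 of 10 (0.95), which is named after its values were seen. SYK, the kinase that binds phosphorylated ITAMs, was called higher in 1 line, F36P (1.91), and had a median of -0.10 over 10 lines. It is named after its values were seen.

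The receptor list shares 5 genes with the markers of monocyte and granulocyte maturation (CSF1R, CSF3R, FCGR1A, ITGAM and ITGAX). The maturation list of 13 genes had 56 of 99 tested pairs called higher (56.6%) and 3 lower (3.03%), with a median of 1.23. Among all pairs of gene and line, 11.1% were called higher and 3.96% lower. Its summed level ranged from 238 to 6214 CPM over the 10 lines before and from 288 to 6075 CPM after etoposide, and was higher after etoposide in 7 lines and lower in HL60, MONOMAC6 and NOMO1. Of its markers, MRC1 was at 0 reads in MOLM13 and MONOMAC6. The primary granule list, of genes made at the promyelocyte stage, had 16 of 43 pairs called lower (37.2%) and 0 called higher by edgeR or DESeq2, with 10 higher at an unadjusted p under 0.05. SPI1, the PU.1 gene, was not called in any of the 10 lines by either tool, had an unadjusted p under 0.05 in 3, and ranged from -0.30 to 0.43 on the log2 scale. These markers moved in the same libraries as FGR and SRC, and their part in the response of the kinases was not tested.

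The markers of other lineages were as follows, against 11.1% higher and 3.96% lower among all pairs. The epithelial and fibroblast list had 16 of 25 tested pairs called higher (64%) and 0 lower by edgeR or DESeq2 (0 lower also at an unadjusted p under 0.05), with COL1A1 called higher in 7 of 8 lines, and its sum ranged from 0.425 to 81.9 CPM before and from 0.957 to 176 CPM after etoposide. EPCAM was at 0 reads in HL60, MV411, NOMO1 and OCIAML3. A pair with few untreated reads passes the filter on low counts through its etoposide libraries alone, and a lower call is then hardly possible. How many of the 25 pairs did so was not counted, so nothing is read from the 64% or from the 0 lower. The erythroid and megakaryocytic list had 7 of 32 pairs called higher (21.9%) and 3 lower (9.38%), and the myeloid identity list 6 of 60 higher and 6 lower (10% each). The part of these markers in the values of the kinases was not tested.

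The genes whose response was most like that of FGR over the 10 lines were GBP3 (Pearson r 0.957), FAM200B (0.932), YPEL1 (0.932), RAD9B (0.918) and KCNIP2 (0.914), out of 9543 protein-coding genes that averaged 1 CPM or more and were tested in all 10 lines. Their log2 fold changes were smaller than those of FGR, with a maximum of 3.32 for GBP3. The genes whose basal level over 11 lines was most like that of FGR, out of 12109, were TAGAP (0.942), GON7 (0.938), TOR1AIP1 (0.930), ZNF41 (0.913) and DKK2 (0.905). All points of each line share libraries, and OCIAML2 lies far above the other lines in basal FGR. Among the kinases, CSK had a basal r of 0.632 with FGR, SRC 0.569, LYN 0.527 and FYN 0.206, while YES1 had -0.650 and MATK -0.600. In response the r with FGR was -0.682 for MATK, -0.666 for LYN, -0.480 for CSK, -0.451 for FYN and -0.140 for YES1, and SRC was not tested in all 10 lines. These correlations over 10 or 11 cell lines are descriptions and were not tested.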

How the data were processed

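RNA-seq reads were mapped by the authors with STAR 2.5.3a to GRCh38.p7 with gencode release 25, after FastQC 0.11.5, and the authors called differential expression with edgeR 3.20.1 (fold change above 2, FDR below 0.05). The deposited values are raw counts of reads per gene, 1 file per library, without normalization. The sources used here do not name which strand setting was counted, nor the filter on low counts. No deposited column of comparisons was used.

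From the counts, CPM, fold changes and p-values were computed in R 4.3.3 with edgeR 4.0.16 and DESeq2 1.42.0, and summaries in Python 3.11.15. Of 58037 identifiers, 45 pseudoautosomal Y copies with 0 reads were left out, and 56948 of the rest were named from gencode 44, which also gave exon lengths. Per cell line, 3 untreated and 3 etoposide libraries were fitted with filterByExpr (minimum count 10, minimum total 15), TMM and edgeR's quasi-likelihood test, and p-values were adjusted by Benjamini-Hochberg over every gene tested. SE is that of the log2 fold change. The interaction test used 60 libraries in 1 fit and the basal test 33. Where a group had 0 reads, a floor of 3 reads over the group was used on normalized library sizes, and with 1 to 3 reads the exact binomial 95% interval of the ratio. The methods were tested on simulated data with known changes. No pair of replicates agreed within sampling noise.

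Replicate numbers paired the libraries in 3 of 11 lines, MOLM13, NB4 and OCIAML2, where the deviations of same-numbered libraries correlated above 0.1 in each pair (lowest 0.182, 0.196 and 0.115), and a replicate block was run as an alternative. Other alternatives were other scalings, filters and tests, no minimum fold, 1 fit for 10 lines, and each replicate or F36P left out. Members and lists were chosen with earlier results of these data known, and some listed genes are not reported here. Named genes were the 8 members, MATK, CDKN1A, MDM2, up to 12 listed genes called the same way in at least 5 lines (most lines first), and the 5 genes most like FGR in response and in basal level.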

Additional observations from a re-analysis of the deposited data

Results flagged for a closer look

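The responses of 6 genes differed between the 10 cell lines in the edgeR quasi-likelihood F-test of the interaction, with Benjamini-Hochberg adjustment. Since 74.5% of the 19974 genes tested passed the same test, this count is no mark of the family. LYN (adjusted p 2.21e-23) was called lower in F36P and had values from -0.40 to 0.43 on the log2 scale in the other 9 lines. FYN (1.11e-18) was called higher in THP1 and NB4, with -0.92 in F36P. SRC (7.47e-16) ranged from 0.21 in OCIAML3 to 6.04 in KASUMI1. LCK (1.75e-07) was tested per line in F36P and NOMO1 only. It was called higher in F36P, from 0 reads, and not in NOMO1, where it was expressed before treatment. LCK passed the filter on low counts in F36P through the etoposide libraries alone, so little is read from its p. CSK (0.00141) ranged from -0.69 in NB4 to 0.00 in MOLM13, and YES1 (0.0132) from -0.72 in MOLM13 to 0.12 in THP1, although no single line was called for either. The YES1 result did not hold with a replicate block (adjusted p 0.0524), without replicate 2 (0.0997) or without replicate 3 (0.0849). The dose of etoposide differed between the lines and cannot be told apart from the line.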

How the results depend on the processing

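The number of lines with FGR called higher was 10 in each alternative that kept all 10 lines, other than a mean of at least 5 CPM, which tests FGR in fewer lines and left 7. Of 22 calls over the 8 genes (21 higher, 1 lower), 14 were left with a mean of at least 5 CPM (13 higher), since fewer genes were then tested. With no minimum fold there were 44 (32 higher, 12 lower). Among all genes tested, 4746 of 14789 in THP1 and 8939 of 13998 in MV411, the lines with the lowest and highest share, passed in that way. Calls lower numbered 2 with no filter beyond at least 1 read, where FYN in F36P was called at -1.03, 2 without untreated replicate 3, and 0 without F36P, an alternative added after the data were seen. Leaving out each replicate in turn gave 20 to 21 higher and 1 to 2 lower calls, 21 to 23 in all, and leaving out F36P 18. Over 1056 single results and alternatives, 1026 kept their side of the threshold, 5 lost a call, 25 gained one and 0 reversed. A replicate block gave the same number of higher calls (21) and changed only YES1 in the interaction test (adjusted p 0.0524, 5 genes in place of 6), and the basal test kept 8 of 8 genes in each alternative. Without untreated replicate 1 the log2 fold change of FGR in HL60 went from 3.24 to 5.22 and that of SRC in KASUMI1 from 6.04 to 7.25. Scaling by library size alone moved the median log2 fold change by up to 0.25 (F36P) and changed no call of the 8 genes. Depth limits LCK, BLK and the lines with few FGR or SRC reads.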

Other observations

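YES1 had 1 read in untreated OCIAML2 and at least 663 in each other line, and its neighbours on chromosome 18 were looked at after this was seen. In OCIAML2, TYMS (18:657653 to 673578 on GRCh38), the thymidylate synthase gene near it, had 24377 reads over the 3 untreated libraries, against 17040 to 32096 in the other lines. ENOSF1, which lies between TYMS and YES1, had 1601 reads, against 11 to 10365. On the other side METTL4 (2537525 to 2571509) had 1431 reads, against 611 to 1862, and NDC80 (2571557 to 2616635) 3786, against 1928 to 7279. The low count of YES1 in OCIAML2 was thus not shared by these expressed genes. METTL4 and NDC80 lie far beyond the end of YES1 at 812546, and ADCYAP1, listed between them and YES1, was all but silent in every line. On that side, nothing close to YES1 can therefore be judged from the genes listed. The genes CETN1, CLUL1 and ADCYAP1 had 0 reads there and at most 7 in any line.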
